A study of Mus musculus with 16 samples.

Results

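Neuropeptide Y, somatostatin and cortistatin are small peptides that inhibitory interneurons of the hippocampus release beside GABA. The 10 genes described here are the 3 peptide genes (Npy, Sst and Cort), 3 receptors of neuropeptide Y (Npy1r, Npy2r and Npy5r) and 4 receptors of somatostatin and cortistatin (Sstr1, Sstr2, Sstr3 and Sstr4). They were chosen by membership of these peptide systems, and each matched 1 of the 55385 genes in the deposited tables. RNA was sequenced from primary hippocampal cultures of newborn C57Bl/6N mice in 16 libraries, 4 for each of 4 groups. The groups were Control-shRNA baseline, Control-shRNA bicuculline, Dnmt3a1-shRNA2 baseline and Dnmt3a1-shRNA2 bicuculline, with 4 h of bicuculline in the stimulated groups. All groups were infected with a recombinant adeno-associated virus that carries the hairpin behind the U6 promoter and a GFP cassette behind the chicken beta-actin promoter, so that the controls carry virus, a hairpin and GFP too. The knockdown rests on 1 hairpin. The comparisons ask how the genes respond to neuronal activity, and how their levels differ when the DNA methyltransferase Dnmt3a1 is reduced.

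Neuropeptide Y acts on the Y receptors, and somatostatin and cortistatin share the Sstr receptors. Both receptor families couple to inhibitory Gi/o proteins, which lower cAMP, open GIRK potassium channels and reduce calcium entry, so that the peptides dampen excitability and transmitter release. In the hippocampus, Npy is made by several classes of GABAergic interneurons, Sst is known for interneurons that contact distal dendrites, and Cort is found in a part of the interneurons. Bicuculline blocks GABA-A receptors and drives bursts of network activity in such cultures. Somatostatin transcription is the textbook case of a gene driven by cAMP through CREB, which binds the cAMP response element (CRE).

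Sst and Cort encode peptides with a common core, which the last 14 codons of the 2 coding sequences show. These codons lie in exon 2 of 2 in both genes, at chr16:23889732-23889773 for Sst and chr4:149125267-149125308 for Cort (GRCm38, minus strand, GENCODE M21). In the stretches below, read 5′ to 3′ on the coding strand, capitals mark the bases that are identical when the second codon of Sst is set against the first codon of Cort.
Sst: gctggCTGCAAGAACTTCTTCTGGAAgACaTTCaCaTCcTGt
Cort: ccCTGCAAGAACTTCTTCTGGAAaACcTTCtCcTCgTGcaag
Of the 39 aligned bases, 31 were identical (79.5%), and 11 of the 13 aligned codons encoded the same amino acid. The likeness does not blur the measurement, because none of the 691 words of 31 bases in the Sst transcript, nor any of the 647 in Cort, occurs in a transcript of another gene. Words of that length are the unit by which kallisto, the authors' tool, assigns reads.

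The letters of the CRE, TGACGTCA, were searched in the 250 bases before each RefSeq start (GRCm38.p6). Windows were found for 9 of the 10 genes, with 2 windows for Sstr3. The CRE was present at Sst and at Sstr2, against 1.55% of 32851 windows over all genes. It was absent from the windows of Npy and Cort, which were also higher with bicuculline. Sstr1, the other receptor that was higher, had no window. The sites are shown with the CRE in capitals, at chr16:23890874-23890903 (minus strand) for Sst and chr11:113619258-113619287 (plus strand) for Sstr2, because these genes carry a peptide and a receptor that were higher with bicuculline.
Sst: gcctccttggcTGACGTCAgagagagagtt
Sstr2: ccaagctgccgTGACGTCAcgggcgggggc
The element begins at position -48 from the RefSeq start in Sst and at position -58 in Sstr2, counting the last base before the start as -1. GENCODE places the start of Sst further upstream, so that the Sst site falls in its 5′ UTR there. The shorter core TGACG, searched on both strands and contained in every CRE, was also found at -18 in Cort and at -9 in 1 Sstr3 window, against 17.8% of all windows. The AP-1 letters TGANTCA were found at -231 in Npy1r, against 6.75% of all windows. The Sstr3 window lies within a GENCODE exon of Sstr3 over all its 250 bases, and the Npy1r window within an exon of Npy1r over 230. A match of letters is a description and not a binding site.

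The cytosine of CG is a site at which DNA methyltransferases act, and other sites were not marked here. The upstream windows of Npy and Cort, the peptide genes that were lower in both comparisons of Dnmt3a1-shRNA2 with Control-shRNA, are printed with CG in capitals. They cover chr6:49822460-49822709 (plus strand) and chr4:149126764-149127013 (minus strand) and end at the base before the RefSeq start.
Npy: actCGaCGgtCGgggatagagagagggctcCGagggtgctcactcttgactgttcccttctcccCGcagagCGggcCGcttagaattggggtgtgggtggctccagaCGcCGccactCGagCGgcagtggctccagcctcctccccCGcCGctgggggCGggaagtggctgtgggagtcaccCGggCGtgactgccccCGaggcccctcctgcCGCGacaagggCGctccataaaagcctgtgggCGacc
Cort: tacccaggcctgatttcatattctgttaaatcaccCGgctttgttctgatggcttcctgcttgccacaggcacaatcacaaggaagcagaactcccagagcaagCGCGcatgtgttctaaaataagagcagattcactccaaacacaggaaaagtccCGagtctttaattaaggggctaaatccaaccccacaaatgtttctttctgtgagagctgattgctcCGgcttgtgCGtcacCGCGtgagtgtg
The Npy window held 21 CG and the Cort window 8, where the median window of all genes held 6. The windows of Sstr3, the receptor that was also lower in both comparisons, held 6 and 1. Of the other members with a window, Sstr4 held 28, Sstr2 18, Npy2r and Npy5r 12 each, Npy1r 10 and Sst 8. A link between CG count and change was not tested. The share of windows with fewer CG was 83.7% for Npy and 57.0% for Cort. Methylation was not measured in these libraries.

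The libraries held between 28912697 and 29586355 estimated counts. In the libraries labelled Dnmt3a1-shRNA2, Dnmt3a lay between 39.4 and 48.0 CPM (counts scaled to a common library size), against 293 to 338 CPM in the Control-shRNA libraries. These reads cover the whole Dnmt3a gene, not the Dnmt3a1 isoform alone. Arc, Fos and Npas4, which neurons switch on within minutes of activity, rose with bicuculline under both shRNAs, with log2 fold changes from 5.64 to 7.32. The tables hold the defining markers of neurons, astrocytes and the oligodendrocyte lineage, whereas Cx3cr1 and Aif1 of microglia were too low to test. CPM compares libraries, and TPM, which is also scaled for transcript length, compares genes. Genes count as called where the adjusted p lies below 0.05 and the log2 fold change exceeds 0.5 in size, in 1 edgeR quasi-likelihood fit of 17222 genes, all 10 members included. The p-values rest on the spread between libraries within a group, with an estimate per gene that the 4 groups share. The fit has no term for the replicate number. The study describes the 4 libraries of a group as independent neuronal preparations. Between the shRNAs at baseline, 1 gene among Arc, Fos and Npas4 was called higher. The largest log2 fold change among them was 0.61. Mean levels in Control-shRNA and Dnmt3a1-shRNA2 baseline were 10.4 and 15.9 CPM for Npas4 and 10.3 and 15.5 CPM for Fos. Arc went the other way, at 14.8 and 11.3 CPM. With bicuculline none of them was called between the shRNAs. A bearing of the baseline difference on the peptide genes was not tested.

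On the TPM scale, Sst was the most abundant of the 10 genes in every group, at 1550 ± 193 TPM (SD, n = 4) in Control-shRNA baseline. Npy followed at 347 ± 69.2 TPM and Cort at 54.8 ± 4.58 TPM. The receptors then ran from Sstr1 at 41.4 ± 1.88 TPM through Sstr2 at 33.2 ± 4.38, Npy1r at 30.8 ± 1.18, Sstr4 at 13.6 ± 3.38, Sstr3 at 12.6 ± 1.80 and Npy2r at 7.99 ± 1.41 down to Npy5r at 0.955 ± 0.227 TPM. In that order, Sstr2 and Npy1r overlapped over the 4 libraries, as did Sstr4 and Sstr3, and all other neighbours were apart. With bicuculline in Control-shRNA, Sstr2 (107 ± 13.4 TPM) and Sstr1 (104 ± 5.86 TPM) stood level with Cort (98.8 ± 13.2 TPM), and these 3 genes overlapped. In Dnmt3a1-shRNA2 baseline, Cort dropped to the sixth place, at 17.8 ± 4.23 TPM, below Sstr1, Npy1r and Sstr2.

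**Figure D1:**
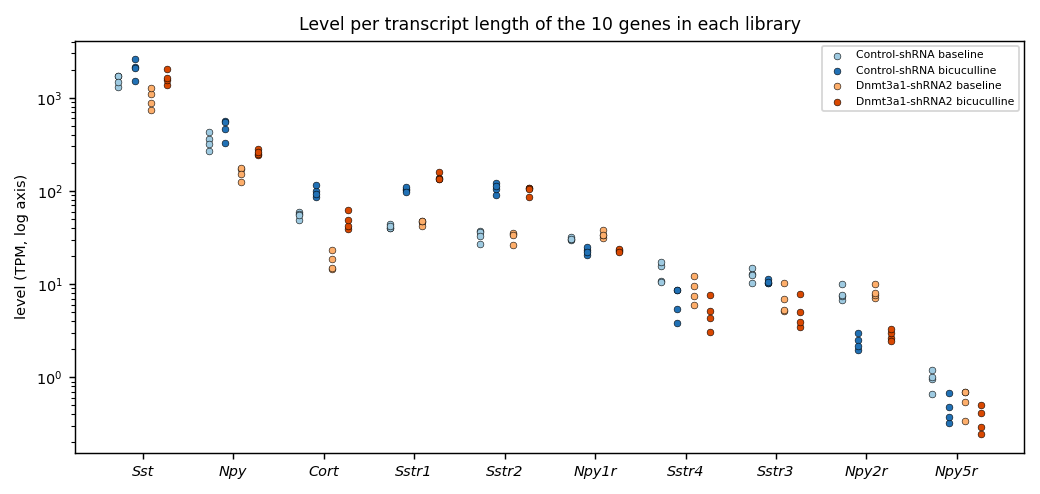
Level of the 10 genes in TPM on a log axis, 1 point per library, with the groups in 4 colours and the genes ordered by their mean in Control-shRNA baseline. Sst and Npy sit above all receptors in every group, and Npy5r lies near or below 1 TPM.

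The other genes of the 2 families were close to absent. Pyy and Ppy, the sister peptides of Npy, had at most 1 count in any library, Npy4r at most 5, Npy6r at most 9 and Sstr5 at most 1, so that 0 of these 5 genes passed the filter on low counts.

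The 10 genes were counted against all 17222 tested genes. With bicuculline in Control-shRNA, 8 of 10 were called, 5 higher and 3 lower, against a background of 21.9%, with 10.8% higher and 11.1% lower. In Dnmt3a1-shRNA2 with bicuculline against its baseline, 6 of 10 were called, 5 higher and 1 lower, where the background was 25.8%, 12.6% higher and 13.2% lower. With Dnmt3a1-shRNA2 in baseline, 4 of 10 were called, all of them lower, against 5.83% of all genes, 1.76% higher and 4.07% lower. With Dnmt3a1-shRNA2 and bicuculline, 4 of 10 were called, 1 higher and 3 lower, against 5.89%, 2.0% higher and 3.90% lower. The median log2 fold change of the 10 genes was 0.29, 0.27, -0.52 and -0.24 in these comparisons, where the median of all genes lay between -0.01 and 0.01. The counts describe genes chosen with earlier results known and are not a test. Each group of libraries serves in 2 of the 4 comparisons, so their values are not independent of each other.

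**Figure D2:**
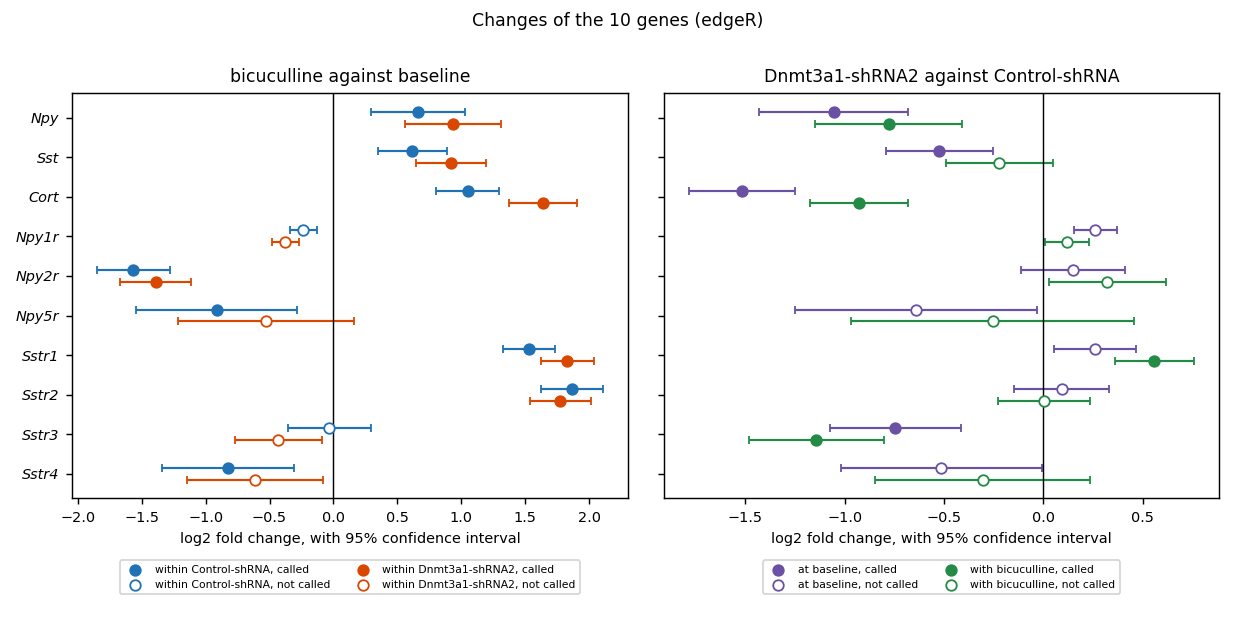
Log2 fold change of the 10 genes in the 4 comparisons with 95% confidence intervals from the edgeR fit, bicuculline against baseline on the left and Dnmt3a1-shRNA2 against Control-shRNA on the right. Filled points were called. The 3 peptide genes, Sstr1 and Sstr2 lie to the right of 0 with bicuculline, and Npy, Cort and Sstr3 lie to the left of 0 with Dnmt3a1-shRNA2 in both conditions.

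All 3 peptide genes were higher with bicuculline and lower with Dnmt3a1-shRNA2 at baseline. Cort had the largest log2 fold changes of the 3 in each comparison. Because the libraries are bulk samples, fewer cells of a type and less RNA per cell cannot be told apart.

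Npy, the most widespread peptide of hippocampal interneurons, read 71.1, 48.8, 53.8 and 78.2 CPM in the 4 Control-shRNA baseline libraries and 127, 68.6, 91.6 and 112 CPM with bicuculline. Its levels in Dnmt3a1-shRNA2 were 36.7, 25.0, 30.6 and 28.9 CPM at baseline and 67.4, 53.9, 51.9 and 59.0 CPM with bicuculline. The stimulated libraries were higher in each replicate number, but in Control-shRNA the ranges overlapped, since replicates 1 and 4 were high in both conditions. Every Dnmt3a1-shRNA2 baseline library was below every Control-shRNA baseline library. Npy rose by a log2 fold change of 0.66 ± 0.17 (SE) in Control-shRNA (edgeR adjusted p = 0.00513) and by 0.94 ± 0.18 in Dnmt3a1-shRNA2 (adjusted p = 0.000302). With Dnmt3a1-shRNA2 it fell by 1.05 ± 0.18 on the log2 scale at baseline (adjusted p = 0.000549) and by 0.78 ± 0.17 with bicuculline (adjusted p = 0.00498). On log2(TPM + 1) the rise in Control-shRNA was 0.45, under the fold limit (limma adjusted p = 0.0347). The study also measured Npy by qRT-PCR in independent stimulated cultures, with each of its Dnmt3a1 hairpins. It reports that the effect on Npy was not significant with 1 of these hairpins.

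Sst, whose peptide restrains dendritic input, read 361, 433, 407 and 377 CPM in Control-shRNA baseline and 476, 628, 719 and 598 CPM with bicuculline. In Dnmt3a1-shRNA2 it read 223, 314, 320 and 240 CPM at baseline and 464, 499, 601 and 511 CPM with bicuculline. The groups did not overlap in either bicuculline comparison or between the shRNAs at baseline, whereas the stimulated libraries of the 2 shRNAs overlapped. Sst rose by 0.62 ± 0.13 on the log2 scale in Control-shRNA (edgeR adjusted p = 0.000803) and by 0.92 ± 0.13 in Dnmt3a1-shRNA2 (adjusted p = 1.31e-05). At baseline it fell by 0.52 ± 0.13 with Dnmt3a1-shRNA2 (adjusted p = 0.00921), close to the fold limit. With bicuculline the difference between the shRNAs was -0.22 ± 0.13 (95% interval -0.49 to 0.05, adjusted p = 0.253). The fall at baseline went under the fold limit without Dnmt3a1-shRNA2 baseline replicate 1 (-0.44), without Dnmt3a1-shRNA2 baseline replicate 4 (-0.47) and without Control-shRNA baseline replicate 2 (-0.48). The rise in Control-shRNA was 0.46 when only library sizes were used for scaling and 0.40 on log2(TPM + 1), where the adjusted p was 0.07805.

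Cort, the peptide that binds the somatostatin receptors beside targets of its own, read 12.2, 13.8, 12.3 and 12.8 CPM in Control-shRNA baseline and 25.1, 26.7, 29.9 and 24.4 CPM with bicuculline. In Dnmt3a1-shRNA2 it read 3.94, 4.90, 5.33 and 3.67 CPM at baseline and 12.2, 12.4, 16.9 and 14.3 CPM with bicuculline. All 4 comparisons were free of overlap, and the stimulated Dnmt3a1-shRNA2 libraries overlapped with the unstimulated controls. Cort rose by 1.05 ± 0.12 on the log2 scale in Control-shRNA (edgeR adjusted p = 1.18e-06) and by 1.64 ± 0.13 in Dnmt3a1-shRNA2 (adjusted p = 1.15e-08). With Dnmt3a1-shRNA2 it fell by 1.52 ± 0.13 at baseline (adjusted p = 3.37e-07) and by 0.93 ± 0.12 with bicuculline (adjusted p = 2.99e-05).

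**Figure D3:**
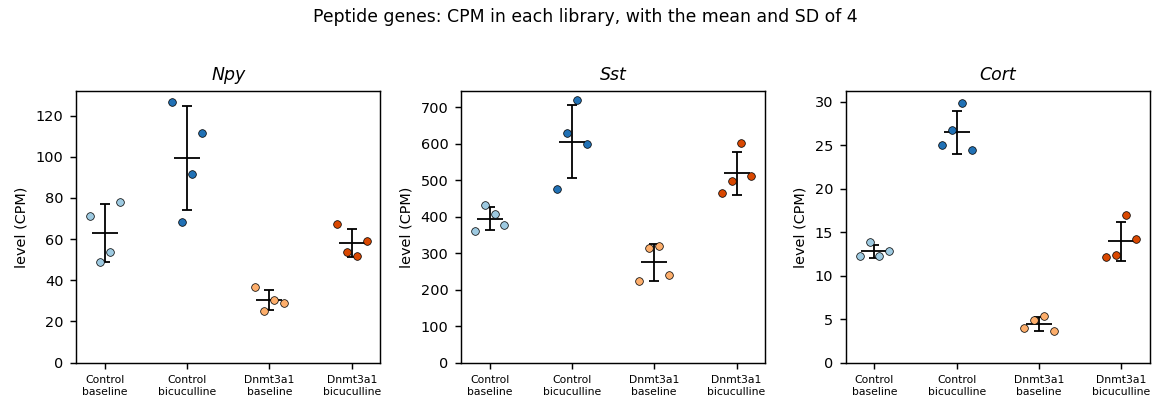
CPM of Npy, Sst and Cort in the 16 libraries, 1 point per library, with the mean (horizontal line) and SD (whiskers) of the 4 libraries of each group and axes that start at 0. Each gene is higher with bicuculline within both shRNAs, and the Dnmt3a1-shRNA2 baseline group is the lowest, at a mean of 4.46 CPM for Cort against 12.8 CPM in Control-shRNA baseline.

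Within each library the TPM of Cort was set against that of Sst, a comparison chosen after the values were seen. The ratio was 0.0355 ± 0.00196 (SD, n = 4) in Control-shRNA baseline and 0.0178 ± 0.00117 in Dnmt3a1-shRNA2 baseline. With bicuculline it was 0.0484 ± 0.00603 in Control-shRNA and 0.0292 ± 0.00166 in Dnmt3a1-shRNA2. The log2 difference of the ratio was 0.44 with bicuculline in Control-shRNA and 0.72 in Dnmt3a1-shRNA2, and with Dnmt3a1-shRNA2 -1.0 at baseline and -0.72 with bicuculline. None of these comparisons overlapped, and none passed after adjustment (two-sided exact permutation p = 0.0286, the smallest that 4 against 4 libraries allow, and 0.0571 after adjustment over 24 tests of ratios). The ratio of Npy to Sst ranged from 0.154 to 0.377 in the stimulated controls alone and the unpaired exact permutation p was 0.171 between the shRNAs in both conditions and 0.914 or more with bicuculline. Taken by replicate number, this ratio was lower with Dnmt3a1-shRNA2 in 4 of 4 numbers at baseline and in 4 of 4 with bicuculline.

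The 5 markers of GABAergic neurons (Gad1, Gad2, Slc32a1, Dlx1 and Lhx6) were measured beside the peptides. Their summed level ranged from 1338 to 1698 CPM in Control-shRNA baseline and from 1061 to 1372 CPM in Dnmt3a1-shRNA2 baseline, and 0 of 5 were called between the shRNAs in either condition. Gad1 had a value of -0.42 at baseline (edgeR adjusted p = 0.0267), under the fold limit. The median log2 fold change of these markers was -0.12 at baseline and -0.13 with bicuculline. Relative to this sum, Cort was lower with Dnmt3a1-shRNA2 by 1.24 on the log2 scale at baseline and by 0.73 with bicuculline, and Npy by 0.75 and 0.55 (two-sided exact permutation p = 0.0286 for each, 0.0571 adjusted). Sst relative to the sum differed by -0.25 at baseline (unpaired exact permutation p = 0.343) and by -0.01 with bicuculline (p = 0.971). Taken by replicate number, Sst relative to the sum was lower with Dnmt3a1-shRNA2 in 4 of 4 numbers at baseline and in 2 of 4 with bicuculline. With bicuculline 3 of the 5 markers rose in both shRNA groups, Gad1, Gad2 and Dlx1, by 0.58 to 0.65 on the log2 scale in Control-shRNA. Of all genes, 10.8% were called higher with bicuculline in Control-shRNA and 12.6% in Dnmt3a1-shRNA2. Against the summed markers, the bicuculline difference in Control-shRNA was 0.10 for Npy (exact permutation p = 0.543) and 0.05 for Sst (p = 0.8286), and 0.49 for Cort (p = 0.0286). In Dnmt3a1-shRNA2 it was 0.30 for Npy (exact permutation p = 0.0286), 0.29 for Sst (p = 0.314) and 1.0 for Cort (p = 0.0286). Each of these values of 0.0286 was 0.0571 after adjustment over the 24 tests of ratios, so that none passed. Astrocyte markers summed to 237 to 411 CPM in Control-shRNA baseline and 312 to 553 CPM in Dnmt3a1-shRNA2 baseline, with 0 of 5 called and a median log2 fold change of 0.39, and their part in the results was not tested. Between the shRNAs at baseline, 1 of 5 neuronal markers was called higher, 0 of 5 excitatory, 0 of 5 oligodendrocyte, 1 of 5 fibroblast (higher) and 1 of 3 tested microglial markers (lower). Of all genes, 5.83% were called between the shRNAs at baseline and 5.89% with bicuculline.

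Among the neuropeptide Y receptors, Npy2r fell with bicuculline and the other 2 changed less or were barely detected. Npy2r, the receptor known for presynaptic inhibition of glutamate release, read 10.2, 13.8, 9.92 and 11.2 CPM in Control-shRNA baseline and 3.46, 3.87, 4.29 and 3.61 CPM with bicuculline. In Dnmt3a1-shRNA2 it read 10.6, 12.0, 14.5 and 13.0 CPM at baseline and 4.59, 4.92, 5.60 and 3.95 CPM with bicuculline. The stimulated libraries were all below the unstimulated ones. Npy2r fell by 1.56 ± 0.13 on the log2 scale in Control-shRNA (edgeR adjusted p = 5.64e-08) and by 1.39 ± 0.13 in Dnmt3a1-shRNA2 (adjusted p = 1.44e-07). Between the shRNAs it differed by 0.15 at baseline (95% interval -0.11 to 0.41) and by 0.32 with bicuculline (95% interval 0.03 to 0.62, adjusted p = 0.124).

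Npy1r, the main postsynaptic Y receptor, ranged from 39.9 to 41.7 CPM in Control-shRNA baseline and from 33.5 to 36.2 CPM with bicuculline. It ranged from 47.6 to 50.1 CPM in Dnmt3a1-shRNA2 baseline and from 35.7 to 39.7 CPM with bicuculline. The replicates of this gene were tight, and its bicuculline groups did not overlap within either shRNA, nor did the shRNAs at baseline. Its log2 fold changes with bicuculline were -0.23 ± 0.05 in Control-shRNA (edgeR adjusted p = 0.00134) and -0.38 ± 0.05 in Dnmt3a1-shRNA2 (adjusted p = 1.055e-05), and with Dnmt3a1-shRNA2 at baseline 0.26 ± 0.05 (adjusted p = 0.00196). All 3 values were under the fold limit of 0.5, which the one for bicuculline in Dnmt3a1-shRNA2 passed with library sizes alone (-0.53) and on log2(TPM + 1) and log2(TPM + 0.1) (-0.55 and -0.56). Of its 31-base words, 4.17% were shared with other genes, against at most 0.257% for any other of the 10 genes.

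Npy5r, a receptor linked to feeding and to the control of seizures, had 7 to 32 counts per library. It read 0.889, 0.833, 0.974 and 0.584 CPM in Control-shRNA baseline and 0.298, 0.462, 0.652 and 0.316 CPM with bicuculline. The ranges overlapped through baseline replicate 4 and stimulated replicate 3. It fell by 0.91 ± 0.30 on the log2 scale in Control-shRNA (edgeR adjusted p = 0.0204), and this call was lost without Control-shRNA baseline replicate 3 (adjusted p = 0.0598), without Control-shRNA bicuculline replicate 1 (0.0631) and without Control-shRNA bicuculline replicate 4 (0.0627). In Dnmt3a1-shRNA2 the difference with bicuculline was -0.53 (95% interval -1.22 to 0.16, adjusted p = 0.207). Npy5r and Npy1r are neighbours on opposite strands, at chr8:66679965-66688128 and chr8:66697192-66706792, and do not overlap.

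Among the somatostatin receptors, Sstr1 and Sstr2 rose with bicuculline, and Sstr3 and Sstr4 did not rise in any comparison. Sstr1 read 40.8, 34.6, 32.3 and 37.2 CPM in Control-shRNA baseline and 111, 105, 106 and 96.8 CPM with bicuculline. The Dnmt3a1-shRNA2 libraries held 48.1, 40.5, 40.3 and 44.6 CPM at baseline and 187, 151, 133 and 146 CPM with bicuculline. All stimulated libraries lay above all unstimulated ones, and with bicuculline the lowest Dnmt3a1-shRNA2 library was above the highest control. Sstr1 rose by 1.53 ± 0.10 on the log2 scale in Control-shRNA (edgeR adjusted p = 1.45e-09) and by 1.83 ± 0.10 in Dnmt3a1-shRNA2 (adjusted p = 1.11e-10). With Dnmt3a1-shRNA2 it was higher by 0.56 ± 0.09 under bicuculline (adjusted p = 0.00057), the 1 member called higher with the knockdown, and differed by 0.26 ± 0.10 at baseline (adjusted p = 0.0809). The value under bicuculline was 0.45 without Dnmt3a1-shRNA2 bicuculline replicate 1, 0.48 with library sizes alone and 0.44 on log2(TPM + 1), all under the fold limit with an adjusted p of 0.00141 or less.

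Sstr2, the receptor with which most somatostatin signalling in the forebrain is associated, read 35.6, 32.0, 28.0 and 25.4 CPM in Control-shRNA baseline and 128, 92.3, 104 and 116 CPM with bicuculline. In Dnmt3a1-shRNA2 it read 28.8, 33.9, 32.4 and 33.9 CPM at baseline and 125, 97.2, 106 and 114 CPM with bicuculline. The 2 shRNAs overlapped in both conditions. Sstr2 rose by 1.87 ± 0.11 on the log2 scale in Control-shRNA (edgeR adjusted p = 7.76e-10) and by 1.78 ± 0.11 in Dnmt3a1-shRNA2 (adjusted p = 1.055e-09). The difference between the shRNAs was 0.09 at baseline (95% interval -0.15 to 0.33) and 0.00 with bicuculline (95% interval -0.23 to 0.23), so that a difference of the size seen for Sstr1 under bicuculline lay outside the second interval. Sstr2 overlaps Slc39a11 on the opposite strand, and the use of strand in the counting is not given in the sources used here. Of the 2140 words of 31 bases in Sstr2, 0 occur in an annotated transcript of another gene, read on either strand.

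Sstr3, the receptor found on the primary cilium of neurons, was lower with Dnmt3a1-shRNA2. It read 26.0, 20.2, 24.6 and 22.5 CPM in Control-shRNA baseline and 23.7, 21.8, 23.2 and 22.5 CPM with bicuculline. The Dnmt3a1-shRNA2 libraries held 12.0, 11.5, 18.5 and 13.6 CPM at baseline and 9.07, 7.40, 13.5 and 11.3 CPM with bicuculline. Replicate 3 was the highest Dnmt3a1-shRNA2 library in both conditions and still lay below every control. Sstr3 fell with Dnmt3a1-shRNA2 by 0.74 ± 0.16 on the log2 scale at baseline (edgeR adjusted p = 0.00323) and by 1.14 ± 0.16 with bicuculline (adjusted p = 0.000103). The difference with bicuculline was -0.03 ± 0.15 in Control-shRNA (95% interval -0.36 to 0.29) and -0.43 ± 0.16 in Dnmt3a1-shRNA2 (adjusted p = 0.0382), the latter under the fold limit. Without Dnmt3a1-shRNA2 baseline replicate 2 this value was -0.51, and without Dnmt3a1-shRNA2 bicuculline replicate 3 it was -0.59, past the limit in both cases.

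Sstr4, a receptor of hippocampal pyramidal cells, read 6.91, 9.29, 9.49 and 6.26 CPM in Control-shRNA baseline and 2.83, 5.93, 5.63 and 3.65 CPM with bicuculline. It ranged from 4.22 to 7.05 CPM in Dnmt3a1-shRNA2 baseline and from 2.45 to 5.13 CPM with bicuculline. Replicates 2 and 3 were above replicates 1 and 4 in all 4 groups. Sstr4 fell by 0.82 ± 0.24 on the log2 scale with bicuculline in Control-shRNA (edgeR adjusted p = 0.0115), and in Dnmt3a1-shRNA2 the difference was -0.61 ± 0.25 (adjusted p = 0.0563). The latter passed the limits without Control-shRNA bicuculline replicate 1 (-0.62), without Dnmt3a1-shRNA2 baseline replicate 1 (-0.73) and without Dnmt3a1-shRNA2 bicuculline replicate 3 (-0.83). It also did so with the replicate block (-0.62, adjusted p = 0.00019), by DESeq2 (-0.59, adjusted p = 0.0416), without a filter (-0.62), with library sizes alone (-0.76) and on log2(TPM + 1) and log2(TPM + 0.1) (-0.72 and -0.82). With Dnmt3a1-shRNA2 at baseline the difference was -0.51 ± 0.24 (adjusted p = 0.165), and it passed the limits with the replicate number as a block, at -0.52 (adjusted p = 0.001235).

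**Figure D4:**
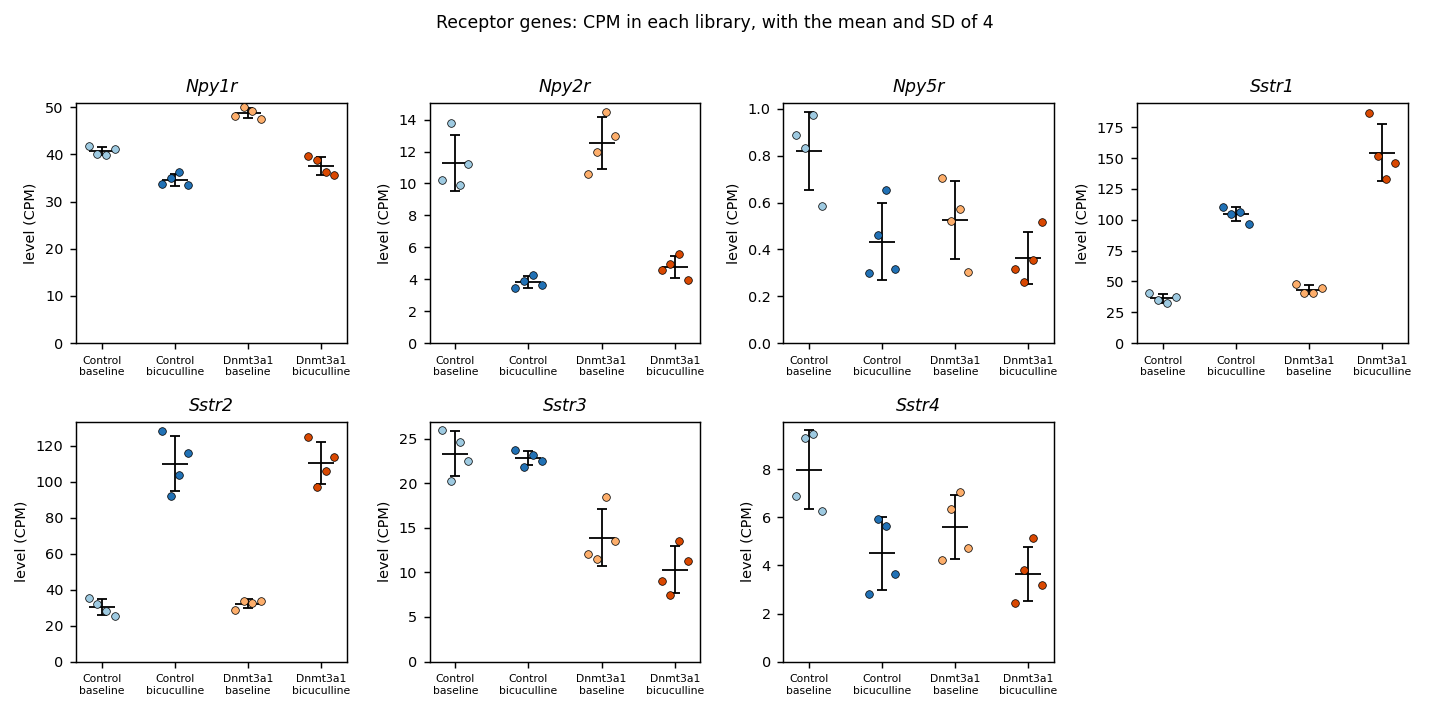
CPM of the 7 receptor genes in the 16 libraries, 1 point per library, with the mean (horizontal line) and SD (whiskers) of the 4 libraries of each group and axes that start at 0. Sstr1 and Sstr2 are 2.89 and 3.64 times as high with bicuculline in Control-shRNA, Npy2r is lower with bicuculline in both shRNAs, and Sstr3 is lower in the Dnmt3a1-shRNA2 libraries.

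Whether the response to bicuculline itself differed between the shRNAs was tested as an interaction. The edgeR fit called 0.00% of the 17222 genes and 0 of the 10 members, with 852 genes at an unadjusted p under 0.05. By voom with limma 0 genes were called, and DESeq2 called 18, none of them a member. Cort had the largest value among the 10, a response greater by 0.59 ± 0.17 on the log2 scale in Dnmt3a1-shRNA2 (unadjusted p = 0.00297, adjusted p = 0.703). For Sstr1 the edgeR fit gave 0.30 ± 0.14 (adjusted p = 0.984), with a 95% interval from 0.01 to 0.59. The intervals of the other 8 included 0. A greater response in Dnmt3a1-shRNA2 was therefore not shown for any of the genes.

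The enzymes that cut and finish peptide precursors were examined as a list of 5. With bicuculline 2 of 5 rose in both shRNAs, against 10.8% and 12.6% of all genes. The list's median was 0.33 and 0.30 on the log2 scale. Pcsk1, the convertase that cleaves prohormones at paired basic residues, rose by 2.93 ± 0.22 in Control-shRNA (edgeR adjusted p = 9.35e-09) and by 3.48 ± 0.22 in Dnmt3a1-shRNA2. Pam, which amidates peptides such as neuropeptide Y, rose by 1.37 ± 0.11 and 1.60 ± 0.11. Between the shRNAs 0 of 5 were called in either condition, against 5.83% of all genes at baseline and 5.89% with bicuculline. Cpe, the carboxypeptidase that trims the cut ends, had a value of -0.40 ± 0.07 at baseline (adjusted p = 0.000421) and -0.43 ± 0.07 with bicuculline, under the fold limit.

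Of 5 peptidases that break these peptides down, 0 were called with bicuculline in Control-shRNA and 1 in Dnmt3a1-shRNA2, Dpp4, which shortens neuropeptide Y to a form that spares the Y1 receptor, at 0.78 ± 0.29 (edgeR adjusted p = 0.0345). Its value in Control-shRNA was 0.61 ± 0.28 (adjusted p = 0.0964), and the interaction was 0.17 ± 0.40. Dpp4 was barely detected, at 8 to 32 counts per library. Its Dnmt3a1-shRNA2 groups overlapped, at 0.281 to 0.667 CPM in baseline and 0.629 to 1.07 CPM with bicuculline. On the TPM scale these groups stood at 0.369 ± 0.269 and 0.428 ± 0.224 (SD, n = 4). Of all genes, 21.9% were called with bicuculline in Control-shRNA and 25.8% in Dnmt3a1-shRNA2. None of the 5 was called between the shRNAs, where 5.83% of all genes were called at baseline and 5.89% with bicuculline. Of 8 genes for Gi/o proteins and GIRK channels, 7 were tested. The channel subunit Kcnj6 rose with bicuculline by 0.59 ± 0.11 in Control-shRNA and 0.63 ± 0.11 in Dnmt3a1-shRNA2, and Kcnj9 fell by 0.54 ± 0.08 and 0.52 ± 0.08. Between the shRNAs 0 of 7 were called, against the same shares of all genes, and the median was -0.22 at baseline and -0.20 with bicuculline.

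The 18 genes of the interneurons that hold these peptides were then set beside them. Between the shRNAs 4 of 18 were called at baseline and 2 of 18 with bicuculline, against 5.83% and 5.89% of all genes. The medians of the list were -0.08 and -0.10. Dlx5, a transcription factor of the interneuron lineage, fell by 0.98 ± 0.12 at baseline (edgeR adjusted p = 2.64e-05) and by 1.03 ± 0.12 with bicuculline. Pnoc, the precursor of nociceptin, fell by 0.69 ± 0.11 at baseline (adjusted p = 0.00032) and differed by -0.08 ± 0.11 with bicuculline. Pvalb, the calcium buffer of fast-spiking cells, fell by 0.55 ± 0.17 at baseline, at 2.99 to 3.40 CPM against 4.05 to 5.08 CPM. Chodl, a marker of a rare class of interneurons that also holds Sst, Npy and Nos1, rose by 1.26 ± 0.21 at baseline (adjusted p = 0.00046) and 1.18 ± 0.22 with bicuculline. Nos1 had values of 0.47 ± 0.11 (adjusted p = 0.00607) and 0.33 ± 0.11, under the fold limit. Elfn1, a synaptic protein of Sst interneurons, had values of -0.44 ± 0.12 at baseline (adjusted p = 0.0148) and -0.33 ± 0.12 with bicuculline, and the chromatin factor Satb1 of -0.36 ± 0.10 (adjusted p = 0.0245) and -0.30 ± 0.10, all under the fold limit. The transcription factors Lhx6, Sox6, Dlx1 and Dlx2 lay between -0.13 and 0.09 in both conditions and were not called, unlike Dlx5.

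With bicuculline 5 of the 18 rose in Control-shRNA and 6 in Dnmt3a1-shRNA2, and 0 fell. Of all genes, 10.8% and 12.6% were called higher in these comparisons, and 11.1% and 13.2% lower. In both shRNAs 3 of the risen list genes are Gad1, Gad2 and Dlx1, the GABAergic markers already counted. Pnoc rose by 1.27 ± 0.11 and 1.88 ± 0.11, Vip, the peptide of another class of interneurons, by 0.69 ± 0.11 and 0.73 ± 0.11, and Reln by 0.51 ± 0.12 in Dnmt3a1-shRNA2. The median over the 18 was 0.29 in Control-shRNA and 0.33 in Dnmt3a1-shRNA2, where the median of all genes was 0.01 and -0.01.

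**Figure D5:**
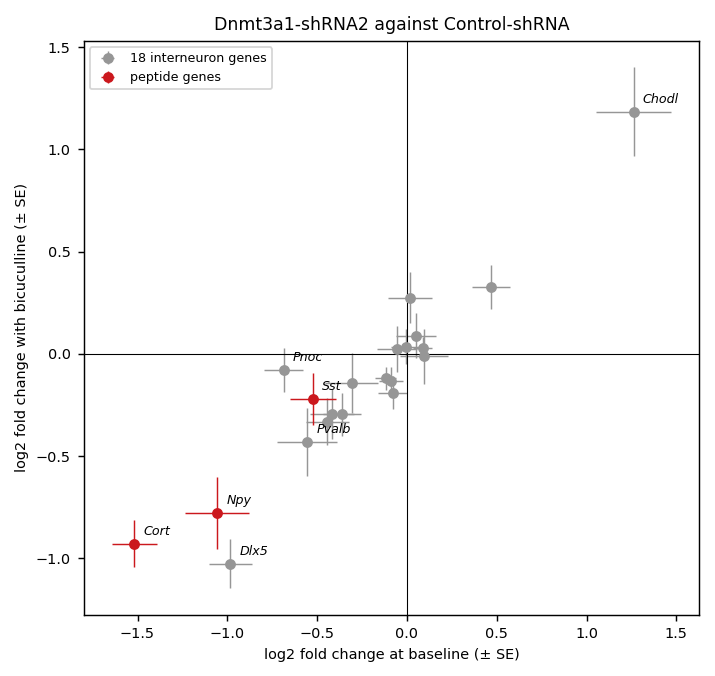
Log2 fold change of Dnmt3a1-shRNA2 against Control-shRNA at baseline (x axis) and with bicuculline (y axis) for the 18 interneuron genes (grey) and the 3 peptide genes (red), with bars for 1 SE from the edgeR fit. Named points were called in at least 1 condition. Cort, Npy and Dlx5 lie lowest on both axes, and Chodl stands apart at the top right.

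The genes whose pattern was most like that of a member were found from the 4 group means of log2 CPM, each centred on its own mean, as the smallest root mean square difference over 13879 tested genes that averaged 1 CPM or more (13880 for Npy5r, which averages less itself). Nearest to Npy were Mtdh (0.04), Nrp1 (0.04) and Rbp4 (0.05). Nearest to Sst were Armcx3 (0.01), Ppp1r2 (0.02) and Clcn5 (0.03). Nearest to Cort was Pthlh (0.06), the gene of parathyroid hormone-like hormone, and then at a distance Crhbp (0.16), which encodes the binding protein of corticotropin-releasing hormone, and Npbwr1 (0.20), a neuropeptide receptor. Sstr1 was matched by Mlf1 (0.04), the neurotensin gene Nts (0.05) and A830029E22Rik (0.06), and Sstr2 by Gmeb2 (0.04), Tnfrsf23 (0.04) and Snhg1 (0.05). Nearest to Sstr3 were Cdh23 (0.05), Amz2 (0.07) and Syt16 (0.08). Npy2r was nearest to Prr36 (0.06), Kctd7 (0.07) and 2610008E11Rik (0.07), Npy5r to Mcm4 (0.04), Zfp825 (0.05) and Exo5 (0.05), and Sstr4 to Kif16b, Rab3il1 and Gm20939 (at most 0.02). A likeness over 4 means is a description, and the means share libraries and scaling.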

How the data were processed

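Per the labels and the study's methods, paired-end reads of total RNA from 16 libraries of primary hippocampal cultures were trimmed by the authors with Trim Galore 0.6.4 and quantified with kallisto on GRCm38.p6. The authors deposited an estimated count per gene and library, not scaled for depth, and its TPM, which also takes transcript length into account. Of 55385 identifiers, 55144 matched a symbol without their version. Rounded estimated counts entered edgeR 4.0.16 (R 4.3.3) with TMM scaling, edgeR's filter on low counts, and 1 quasi-likelihood fit of the 4 groups. CPM uses the TMM-scaled library sizes, and log2 CPM for the nearest patterns a prior count of 2. Benjamini-Hochberg adjustment ran over 17222 genes. SE was taken as the size of the log2 fold change over the root of F. The fit was tested on simulated data.

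Alternatives were voom with limma 3.58.1, DESeq2 1.42.0, other scalings and filters (none, or a minimum of 10 counts per library), TPM on the scales log2(TPM + 1) and log2(TPM + 0.1), the compared groups alone, the replicate number as a block, other fold limits, and leaving out each library. The voom test is the study's own. No 2 libraries of a group were alike within counting error (chi-square over its degrees of freedom 7.92 to 44.7). Named are the 10 members, called genes of fixed lists, and the 3 nearest patterns of each called member. The members and lists were chosen with earlier results of these data known. The ratios were added after the values were seen, and were tested with scipy 1.17.1.

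Replicate numbers recur in every group's labels. Deviations from the group means correlated between same-numbered libraries by 0.14 to 0.22 for bicuculline in Control-shRNA and 0.20 to 0.36 for the shRNAs at baseline, over 0.1 for every number. For bicuculline in Dnmt3a1-shRNA2 and for the shRNAs with bicuculline the lowest value was 0.06 and 0.07. The labels name the knockdown without its construct, which the study's methods give as Dnmt3a1-shRNA2. Npy5r, with the fewest counts, is the member that depth limits most.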

Additional observations from a re-analysis of the deposited data

How the results depend on the processing

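Of the counts of called members, 133 of 137 alternatives stayed within 1.5 times the reported count. With a fold limit of 1 the counts were 4 and not 8 for bicuculline in Control-shRNA, 2 and not 4 for Dnmt3a1-shRNA2 in baseline, and 1 and not 4 for Dnmt3a1-shRNA2 with bicuculline. How many of all genes pass a fold limit of 1 was not counted. On log2(TPM + 1) bicuculline in Control-shRNA called 5 members, and 3679 of all 17222 genes against 3765 in the main fit. Under the replicate block the counts were 8, 7, 5, 4 and 0 for the 4 comparisons and the interaction. With the block, Sstr4 was called for bicuculline against baseline within Dnmt3a1-shRNA2, at -0.622 (edgeR adjusted p = 0.0001899). Over all 17222 genes the block called 3986, 4612, 1284, 1338 and 3, where the main fit called 3765, 4436, 1004, 1015 and 0. Among single members, the block changed a call for Sstr4 alone.

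Of 1285 alternative values of single members, 16 lost a call, 16 gained one and 12 changed sign, all 12 of them not called. Sstr2 between the shRNAs changed sign at baseline on log2(TPM + 1) (-0.0346) and log2(TPM + 0.1) (-0.0355), and with bicuculline on these scales (-0.0726 and -0.0732) and with library sizes alone (-0.0665). Leaving out 1 library at a time, Sstr2 with bicuculline ranged from -0.0716 to 0.0819 between the shRNAs, with 4 libraries turning the sign, and Npy5r from -0.478 to 0.0158. Sstr3 with bicuculline in Control-shRNA ranged from -0.0947 to 0.0243, and the interaction of Sstr4 from -0.00171 to 0.367. Scaling by library sizes alone shifted the middle of all tested genes to -0.15 and -0.16 for bicuculline, and under it Npy1r, Sstr3 and Sstr4 passed the limits in Dnmt3a1-shRNA2, at -0.527, -0.579 and -0.763. The fits on TPM also shifted the middle of all tested genes for bicuculline. On log2(TPM + 1) it lay at -0.14 in Control-shRNA and -0.13 in Dnmt3a1-shRNA2, and on log2(TPM + 0.1) at -0.19 and -0.18. A minimum of 10 counts per library removed Npy5r. The causes were not tested.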

Other observations

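In all 4 groups the ratio of Npy to Sst in TPM was higher in replicates 1 and 4 than in replicates 2 and 3, at 0.277 and 0.294 against 0.159 and 0.187 in Control-shRNA baseline and at 0.233 and 0.171 against 0.112 and 0.136 in Dnmt3a1-shRNA2 baseline. The summed astrocyte markers were lower in replicates 1 and 4, in all 4 groups, at 265 and 237 against 341 and 411 CPM in Control-shRNA baseline. The split was noticed in the data and was not tested.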
